A study of Mus musculus with 8 samples.

Results

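Habp4 and its paralogue Serbp1, 2 of the 22609 genes counted, were examined in mouse sensory neurons sorted from dorsal root ganglia (DRG), where the cell bodies of spinal sensory nerves lie. The pair was taken by gene symbol. Habp4 was chosen by its levels in these same libraries, higher in females on average and low in 1 female library, so its levels are given as a description with no test. Serbp1 was included as the paralogue of Habp4 and could be tested. Both genes were among the 12518 that passed the filter on low counts.

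The 4 female and 4 male libraries came from naïve young adult C57BL/6J mice, the females in estrus. Every mouse had received WGA-488, a fluorescent lectin that travels back along axons, in hindpaw skin and thigh muscle. Labelled cells were sorted from a suspension of lumbar ganglia, so each library mixes skin and muscle neurons, and small amounts of RNA were amplified with the SMART-seq2 protocol. The labels do not say that a library is 1 animal, but the study's methods describe injections in 4 mice of each sex and samples made of lumbar ganglia from both sides, which fits 1 mouse per library.

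Habp4 and Serbp1 encode cytosolic proteins rich in arginine and glycine that bind mRNA and ribosomes. Serbp1 protein is known from structures of idle ribosomes, where it lies in the channel that mRNA would use, next to the elongation factor eEF2, and Habp4 has been found in the same place in eggs. Habp4 is also called Ki-1/57 and intracellular hyaluronan-binding protein 4, and Serbp1 was first described as a protein binding the mRNA of plasminogen activator inhibitor 1. Both are substrates of arginine methyltransferases, and both enter stress granules.

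Habp4 lies on the plus strand of chromosome 13 (64263174 to 64287844, build NCBIM37, also called mm9) and has 8 exons with 2566 bases in its single annotated transcript. Serbp1 lies on the plus strand of chromosome 6 (67216973 to 67239296) and has 8 exons with 6685 bases. Neither shares exon bases with another annotated gene. The stretch below is the most alike of their coding sequences and is shown because it tells how far reads of the paralogues can be separated. It covers 90 bases with no gap, in capitals where the sequences differ, at coding bases 1026 to 1115 of Habp4 and 1020 to 1109 of Serbp1.
Habp4: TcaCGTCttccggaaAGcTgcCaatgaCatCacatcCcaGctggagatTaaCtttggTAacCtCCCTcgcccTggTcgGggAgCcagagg
Serbp1: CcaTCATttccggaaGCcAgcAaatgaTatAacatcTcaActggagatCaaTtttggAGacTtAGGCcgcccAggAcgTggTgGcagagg

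Even here 27 of 90 bases differ. Over the whole coding sequences (1239 and 1224 bases), 66.2% of 1113 aligned bases were identical, and the longest identical run between the whole transcripts was 14 bases, well below the 50-base reads. No 50-base read can therefore match both transcripts exactly. Of the 50-base stretches inside exons, 1.70% of 2174 in Habp4 and 0% of 6293 in Serbp1 had another exact copy in the genome. Inexact copies such as retropseudogenes were not searched.

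Before the results, the libraries themselves need a description. They held 4.80 to 7.33 M reads assigned to genes. All carried the transcripts of the labelled sex: female replicate 1 had 750 reads of Xist, the RNA of the inactive X chromosome, and 0 reads of the Y-linked genes Ddx3y, Eif2s3y, Uty and Kdm5d. Female replicate 4 stood apart, with a chi-square per degree of freedom of 30.1 to 44.9 against the other females and at most 12.1 in any other pair of the same sex. The 13 pan-neuronal markers were above 3 reads in every library, as were 13 of 14 markers of satellite glia and Schwann cells, the support cells that wrap neurons, so the sort also held glial RNA. The haemoglobin genes Hba-a1, Hba-a2, Hbb-b1 and Hbb-b2 were at 0 in every library.

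Habp4 was high in 3 female libraries and low in the remaining female and in all males. As reads per 1e+06 gene reads (counts per M, CPM) it was at 19.7 in female replicate 1, 95.8 in female replicate 2, 127.5 in female replicate 3 and 143 in female replicate 4. Male replicates 1 to 4 were at 23.3, 24.1, 27.9 and 26.2 CPM. Female replicate 1 thus had the lowest level of all 8 libraries, 0.843 times the lowest male, while the next female was 4.87 times higher than female replicate 1 and 3.43 times higher than the highest male.

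The counting error of each level is given for description. Female replicate 1 had 143 Habp4 reads, with an exact 95% Poisson interval of 16.6 to 23.2 CPM, and female replicate 2 had 552 reads with an interval of 88.0 to 104 CPM. The interval of female replicate 1 overlapped those of male replicates 1, 2 and 4, while that of male replicate 3 began just above it, at 23.9 CPM. Intervals cover counting error only, because PCR copies of a molecule cannot be told from separate molecules.

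**Figure D1:**
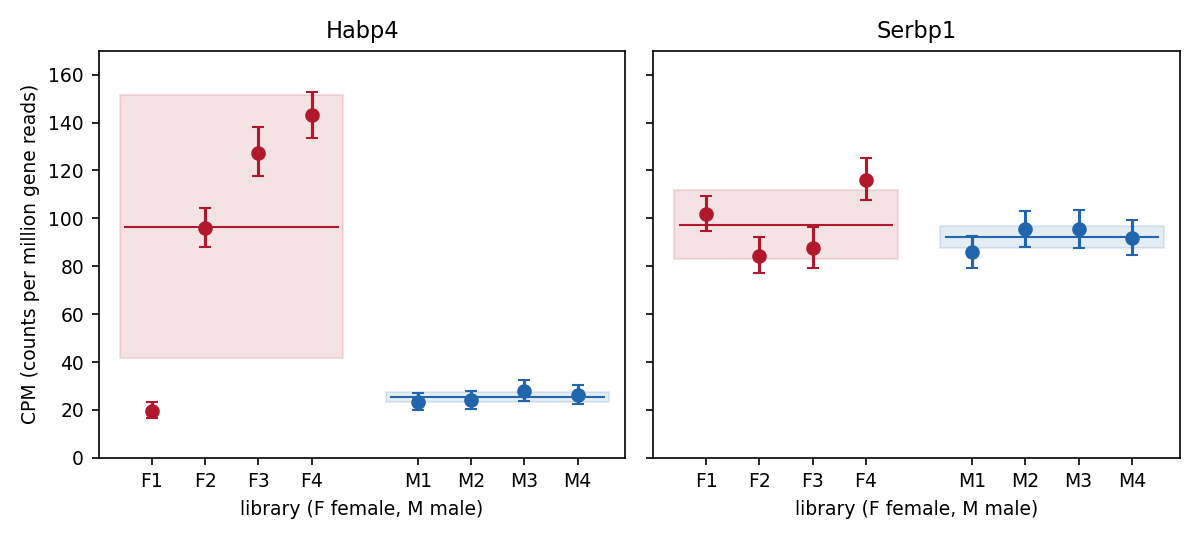
Habp4 and Serbp1 in each library, in CPM (points, with exact 95% Poisson intervals), with the mean of each sex (line) and 1 SD on either side (band). Female replicate 1 (F1) lies at 19.7 CPM for Habp4, among the males, while the other females lie between 95.8 and 143 CPM; for Serbp1 all 8 libraries lie between 84.3 and 116 CPM.

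Females averaged 96.5 ± 54.9 CPM of Habp4 and males 25.4 ± 2.08 CPM (both SD, n = 4), and the edgeR log2 fold change, female over male, was 1.91. This value fell to 1.66 without female replicate 4 and was 2.25 without female replicate 1. The coefficient of variation was 56.9% among females and 8.19% among males. Among the tested genes with a mean of at least 10 CPM, the median was 18.5% in females and 9.21% in males. Among females, 99.3% of these genes varied less than Habp4 and 60 genes varied more. Habp4 was chosen for its low female library, so this rank follows from the choice. In males, 43.6% of these genes were less variable than Habp4. Without female replicate 1, the females had a mean of 122 ± 24.1 CPM (SD, n = 3) and a coefficient of variation of 19.7%.

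Serbp1 did not share this pattern. It was at 102, 84.3, 87.5 and 116 CPM in female replicates 1 to 4 and at 85.8, 95.4, 95.4 and 92.0 CPM in male replicates 1 to 4. The sexes overlapped, female replicate 1 was the second highest library, and female replicate 4 was the highest. Females averaged 97.4 ± 14.6 CPM and males 92.2 ± 4.52 CPM (both SD, n = 4). The edgeR estimate, female over male, was 0.06 ± 0.12 (SE) on the log2 scale, its 95% interval ran from -0.21 to 0.33, and its adjusted p-value was 0.915. A two-sided exact permutation test on log2(CPM + 1) gave a p-value of 0.629, where the smallest possible is 0.0286. No sex difference of Serbp1 was detected with 4 libraries per sex, and its direction turned without female replicate 4, to -0.029 on the log2 scale.

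Because Habp4 differed between libraries far more than Serbp1, the order of the paralogues depended on the library. Per kilobase of annotated exon (RPKM), Habp4 was at 37.3, 49.7 and 55.7 in female replicates 2, 3 and 4, against 12.6, 13.1 and 17.4 for Serbp1. In female replicate 1, Habp4 was at 7.66 RPKM and Serbp1 at 15.2 RPKM. The ratio of Habp4 to Serbp1 per length was therefore 0.503 in female replicate 1, 2.96, 3.80 and 3.21 in the other females and 0.657 to 0.762 in the males. The same libraries had more Habp4 than Serbp1 when reads were not divided by length, with ratios of 1.14, 1.46 and 1.23 in those 3 females and 0.193 to 0.292 in the other 5 libraries. Each exon length comes from 1 annotated transcript, and the use of other transcript ends was not examined.

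The 3 libraries high in Habp4 differed from the others in more than Habp4. They had the fewest gene reads, 4.80 to 5.94 M, against 7.27 M in female replicate 1 and 6.06 to 7.33 M in males. The summed level of 8 markers of myelinated neurons was 1280 CPM in female replicate 1, 1791 to 2632 CPM in the other females and 690 to 1405 CPM in males. The 12 macrophage markers summed to 16.5 CPM in female replicate 1, 33.5 to 39.2 CPM in the other females and 6.55 to 16 CPM in males. All 8 markers of myelinated neurons were above 3 reads in every library, but only 4 of the 12 macrophage markers were. The macrophage sum thus rests partly on counts near the floor. In both lists, female replicate 1 lay closer to the males than to the other females. The part of depth and of these cells in the Habp4 levels was not tested, and in such bulk samples fewer cells of a type and less RNA per cell cannot be told apart.

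Glia followed another order. The 14 markers of satellite glia and Schwann cells summed to 11594 CPM in female replicate 1, 11605 to 14942 CPM in the other females and 5437 to 11201 CPM in males, so female replicate 1 was with the females here. The 10 fibroblast markers, 7 of them above 3 reads in every library, summed to 125 CPM in female replicate 1. This was inside the range of 109 to 163 CPM of the other females, and males had 48.7 to 96.3 CPM. Peptidergic, non-peptidergic and pan-neuronal markers overlapped between the sexes.

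Genes with the profile of Habp4 were sought next, by Pearson's r with Habp4 over the 8 libraries on log2(CPM + 1). Among 9073 tested genes with a mean of at least 10 CPM, 108 (1.19%) had an r of at least 0.9 and 37 (0.408%) an r of at most -0.9. Serbp1 had an r of 0.127. These correlations are descriptions over 8 points that share library depth and the odd female replicate 4, and carry no p-value. The number of genes at 0.9 or more was 103 when the mean of each sex was first subtracted, but only 78 of the 108 were among them. Without female replicate 2 the number was 165. Over all genes, the median absolute log2 difference of female replicate 1 was 0.136 to female replicate 2, 0.180 to female replicate 3 and 0.419 to female replicate 4, against 0.144 to 0.183 between female replicate 1 and the males.

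**Figure D2:**
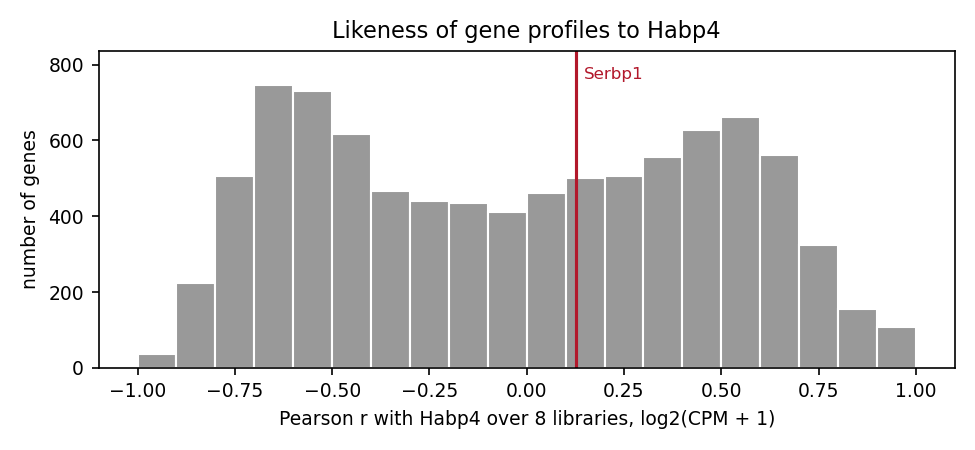
Number of genes (vertical axis) by Pearson r with Habp4 over 8 libraries (horizontal axis, bins of 0.1), for 9073 tested genes with a mean of at least 10 CPM. The rightmost bin holds 108 genes and the leftmost 37, and the line marks Serbp1 at 0.127.

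The 10 genes closest to Habp4 had an r of 0.979 to 0.995 and kept an r of at least 0.9 whichever library was left out, though only 8 of them had a Spearman rho this high. They lie on 6 chromosomes, none on chromosome 13. The closest was Ndfip2, an adaptor of NEDD4-family ubiquitin ligases, at 134 CPM in female replicate 1, 276 to 327 CPM in the other females and 152 to 169 CPM in males. Eri3, of the exonuclease family of Eri1, was at 83.3 CPM in female replicate 1, 172 to 257 CPM in the other females and 88.7 to 103 CPM in males. As for Habp4, female replicate 1 lay below every male for both genes.

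Slc22a17, a receptor for the iron-carrier protein lipocalin 2, was at 59.4 CPM in female replicate 1, 189.8 to 302 CPM in the other females and 54.8 to 77.5 CPM in males. Ypel3, a member of the yippee-like family linked to growth arrest, was at 76.4 CPM in female replicate 1, 314 to 411 CPM in the other females and 90.2 to 124 CPM in males. From female replicate 1 to the next female, Ypel3 stepped up 4.10-fold and Slc22a17 3.20-fold, less than the 4.87-fold of Habp4.

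Ptges2, a prostaglandin E synthase, was at 14.2 CPM in female replicate 1, 48.4 to 59.6 CPM in the other females and 16.8 to 23.8 CPM in males. Yrdc, which acts in the modification of tRNA, was at 4.54 CPM in female replicate 1 from 33 reads, 20.1 to 27.6 CPM in the other females and 6.09 to 8.13 CPM in males. The step of Yrdc, 4.44-fold, was the closest to that of Habp4 among these 10 genes. Med16, a Mediator subunit, had a smaller step, from 41.9 CPM in female replicate 1 to at least 78.8 CPM in the other females. Ctbp1, a transcriptional co-repressor, had the smallest step of the 10, with 120 CPM in female replicate 1, 156 to 167 CPM in the other females and 116 to 126 CPM in males. A high r thus went with large and with small steps.

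The remaining genes were 2510003E04Rik (r = 0.990), which RefSeq lists as Kifbp, a kinesin-binding protein, and Gm4980 (r = 0.979), which it lists as Tpbgl. Of the 10, Ndfip2 had another exact copy for 4.11% of its 50-base exon stretches and Med16 for 7.81%. Ndfip2 shares 553 exon bases with the pseudogene Gm16259. Yrdc shares exon bases with the genes 1110065P20Rik and Maneal on the other strand. In the rest, another exact copy existed for under 1% of the stretches or for none.

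**Figure D3:**
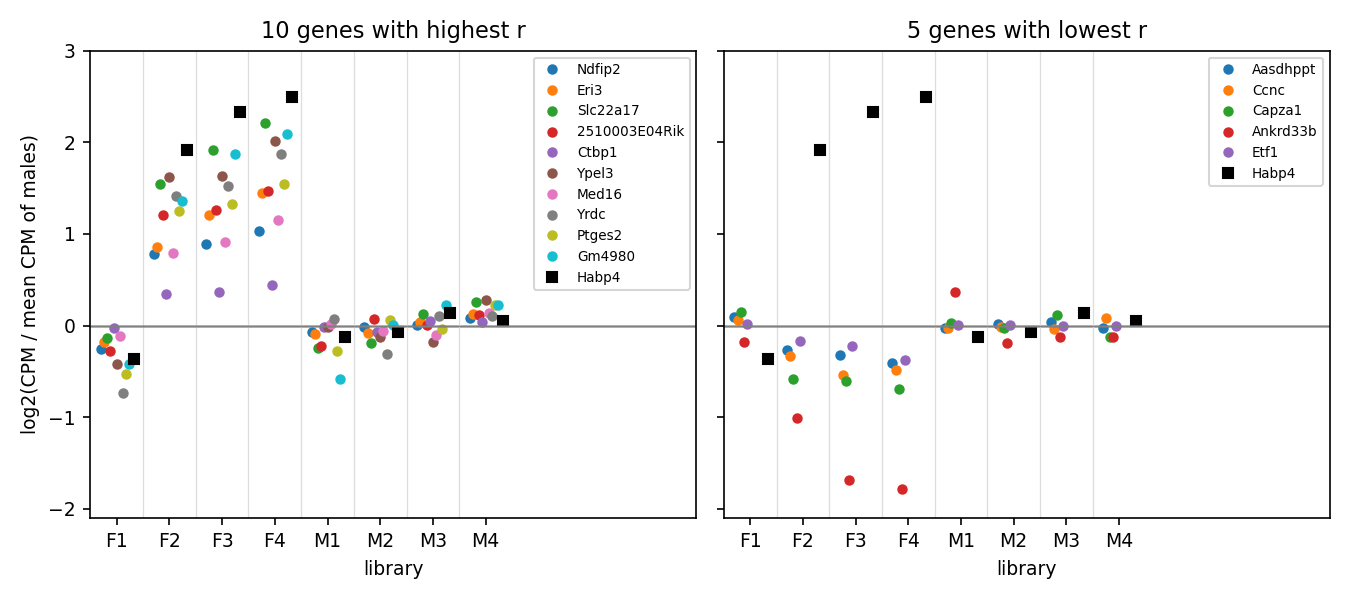
Level of each gene in each library relative to the mean of the males, as log2 of the CPM ratio, for the 10 genes with the highest r with Habp4 (left) and the 5 with the lowest r (right), with Habp4 as black squares. In female replicate 1 (F1) the genes on the left lie below the male mean and in F2, F3 and F4 they lie above it, while the genes on the right lie below the male mean in F2 to F4.

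The 5 genes with the most opposite profile were Aasdhppt (r = -0.981), Ccnc (-0.976), Capza1 (-0.973), Ankrd33b (-0.956) and Etf1 (-0.954). Etf1 encodes the release factor that ends translation at stop codons. It was at 57.1 CPM in female replicate 1, 43.3 to 49.98 CPM in the other females and 56.2 to 56.6 CPM in males, a small but even step. Ankrd33b had the widest step, from 15.4 CPM in female replicate 1 to 5.05 to 8.68 CPM in the other females. Capza1 is uncertain, because 72.1% of its 50-base exon stretches have another exact copy in the genome. Ccnc is uncertain too, because it shares 276 exon bases with 2610029I01Rik.

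Exon length and GC content had no part in the choice of these genes and were compared as medians, with no test. The 108 genes with an r of at least 0.9 had a median exon length of 3046 bases and a median exon GC content of 53.7%. The medians were 3930 bases and 49.9% for the 9026 annotated genes among the 9073. Of the 37 genes with an r of at most -0.9, the 36 annotated ones were longer and poorer in GC, with medians of 4619 bases and 41.6%. Habp4 itself has a GC content of 55.7% and Serbp1 37.8%. Single genes departed from these medians, and Ndfip2, the closest of all, has 11415 exon bases and a GC content of 40.2%. The 108 genes lay on 19 chromosomes, 5 of them (4.63%) on chromosome 13, which holds 3.51% of the 9026 annotated genes.

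The start regions of the pair are shown because genes that move together may share promoter words. They are the 250 bases before each RefSeq gene start, in build GRCm38.p6, with 3 words in capitals on either strand: TGACGTCA, the full cAMP response element, CCAAT, the CCAAT box, and GGGCGG, the GC box. Habp4 lies at chr13:64161616-64161865 and Serbp1 at chr6:67266729-67266978, both on the plus strand.
Habp4: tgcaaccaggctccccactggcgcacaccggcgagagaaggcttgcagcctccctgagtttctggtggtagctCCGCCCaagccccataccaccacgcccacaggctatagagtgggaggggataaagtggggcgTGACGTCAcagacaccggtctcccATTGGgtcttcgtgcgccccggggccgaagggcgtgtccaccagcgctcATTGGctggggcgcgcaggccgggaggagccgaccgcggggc
Serbp1: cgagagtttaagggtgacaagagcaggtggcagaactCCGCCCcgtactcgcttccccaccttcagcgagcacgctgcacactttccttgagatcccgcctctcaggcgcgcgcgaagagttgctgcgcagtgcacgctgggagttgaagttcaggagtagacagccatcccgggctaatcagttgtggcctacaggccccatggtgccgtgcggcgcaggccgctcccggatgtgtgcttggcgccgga

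The Habp4 window held 1 TGACGTCA, 2 CCAAT and 1 GGGCGG, and the Serbp1 window 1 GGGCGG. Over all 27025 genes with such a window, TGACGTCA occurred in 1.77%, CCAAT in 37.5% and GGGCGG in 35.4%. Among the 10 genes closest to Habp4, 0 held TGACGTCA. Among the 108 genes with an r of at least 0.9, 96 had a window and 7 (7.29%) held it, against 238 (3.26%) of 7299 windows of the 9073 genes. In the same windows CCAAT occurred in 45.8% against 40.2% and GGGCGG in 65.6% against 67.2%. A word in a window is a description of the sequence and not a bound site.

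Genes for which female replicate 1 stood apart were then counted in each sex, as cases where the lowest library's gap to the next took most of the range of the 4 libraries, by Dixon's 95% criterion. Habp4 itself fell just short, since the gap took 0.795 of the range, because its other females were themselves spread. Female replicate 1 was low in this way for 67 (0.535%) of the 12518 tested genes. The counts were 38 (0.304%) for female replicate 2, 56 (0.447%) for female replicate 3 and 768 (6.14%) for female replicate 4. They were 215 (1.72%) for male replicate 1 and 61 to 82 for the other males. A count of this size was thus not particular to female replicate 1. A gap over 1 log2 unit was found for 22 of the 67, against 2 for female replicate 2, 3 for female replicate 3, 462 for female replicate 4 and 47 for male replicate 1.

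**Figure D4:**
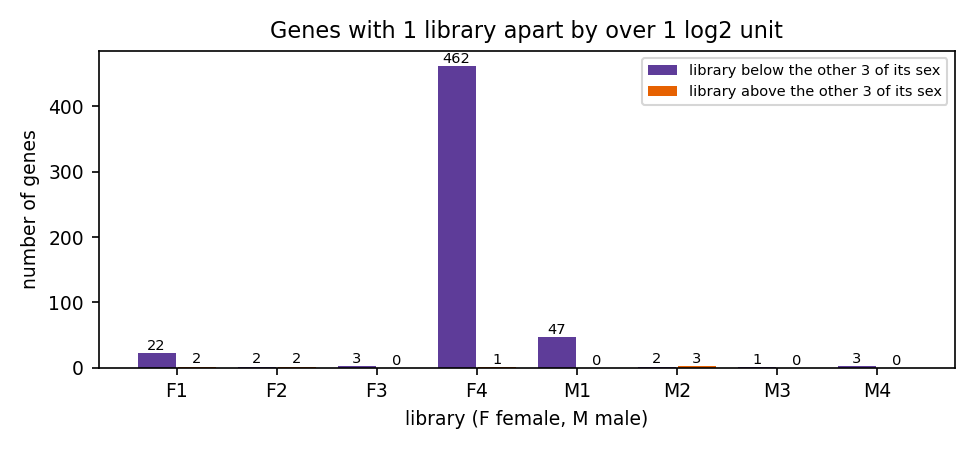
Number of tested genes for which 1 library lay apart from the other 3 of its sex by Dixon's criterion and by over 1 log2 unit of CPM + 1, below (purple) or above (orange). Female replicate 4 (F4) was low for 462 genes, male replicate 1 (M1) for 47 and female replicate 1 (F1) for 22.

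With a mean of at least 10 CPM, 49 genes were low in female replicate 1. Of these, 16 (32.7%) had an r of at least 0.9 with Habp4, where 1.19% of the 9073 genes did. They are 14.8% of the 108 genes like Habp4. All 108 had female replicate 1 as their lowest female, so the lists overlap by how they were made and the share is no result. The largest gap was that of Wrnip1, which encodes an ATPase interacting with the Werner helicase and also lies on chromosome 13, with 16.8 CPM in female replicate 1, 106 to 122 CPM in the other females and 23.6 to 48.5 CPM in males. Dusp5, a nuclear phosphatase of ERK kinases, was at 3.30 CPM in female replicate 1, 19.8 to 23.5 CPM in the other females and 3.96 to 9.02 CPM in males. St3gal5, the synthase of the ganglioside GM3, was at 6.60 CPM in female replicate 1, 31.8 to 39.8 CPM in the other females and 6.96 to 25 CPM in males. All 4 males lay above female replicate 1 for each of these genes. Wrnip1 shares 393 exon bases with D930007J09Rik on the other strand and is uncertain, since SMART-seq2 reads do not keep strand, and St3gal5 has another exact copy for 16.8% of its 50-base exon stretches.

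Syn2, the gene of the synaptic vesicle protein synapsin II and also among the 10 largest gaps, was at 95.5 CPM in female replicate 1, 265 to 292 CPM in the other females and 105 to 126 CPM in males. Hcn3, a pacemaker channel subunit, was at 12.1 CPM in female replicate 1, 34.8 to 39.6 CPM in the other females and 12.6 to 24.7 CPM in males. Hcn3 shares 711 exon bases with Pklr on the other strand and is uncertain for the same reason. Psme3, a proteasome activator, was at 20.3 CPM in female replicate 1, 72.4 to 76.1 CPM in the other females and 25.8 to 34.8 CPM in males. Ypel3, Ptges2 and 2510003E04Rik, 3 of the 10 genes closest to Habp4, and Ybx1 completed the list.

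In the other direction, 13 genes were high in female replicate 1. Capza1, Dek, Crnkl1 and Zfp446 were 1.45-fold to 1.66-fold above the next female.

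The neighbours of Habp4 on chromosome 13 did not follow it. Zfp367, which lies 8664 bases before Habp4, was at 32.7 CPM in female replicate 1, 15.8 to 27.4 CPM in the other females and 30.8 to 37.2 CPM in males, nearly the opposite profile (r = -0.840). Cdc14b, a phosphatase gene that lies 6009 bases after Habp4 on the other strand, was at 6.32 to 10.8 CPM over all libraries with an r of -0.059. Slc35d2, 1110018J18Rik and Ctsl had an r of -0.202, -0.826 and -0.370, and Hsd17b3 had 0 reads. None of the 5 tested neighbours passed in the comparison of the sexes (edgeR adjusted p-values of 0.699 to 0.942; unadjusted values of 0.0519 or more).

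Of the neighbours of Serbp1, Gadd45a and E230016M11Rik resembled Habp4 in profile. Gadd45a, a stress-induced growth arrest gene that lies 229522 bases before Serbp1, was at 13.1 CPM in female replicate 1, 24.6 to 36.7 CPM in the other females and 13.5 to 20.6 CPM in males (r with Habp4 = 0.926). E230016M11Rik, a long non-coding RNA gene beside it, had an r of 0.916, but it shares 337 exon bases with Gadd45a on the other strand, so the pair are not independent. Gng12 had an r of -0.487. Il12rb2, the nearest gene to Serbp1, had 1 to 6 reads per library, and Il23r had 0.

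Genes linked to the pair, or to hyaluronan, after which Habp4 is named, were compared between the sexes in 5 lists of 64 genes. Of the 64 genes, 55 were tested. None had an edgeR adjusted p-value under 0.05, where 0.0879% of all tested genes did. DESeq2 called 0 as well, where it called 0.383% of all tested genes. At an unadjusted edgeR p-value under 0.05, 7 of the 55 passed, where 7.11% of all tested genes did. Of these, 4 were higher in females, where all tested genes gave 4.44%, and 3 higher in males, where they gave 2.67%. The median log2 fold change was 0.0012 over the 55 genes and 0.0034 over all tested genes. The number under 0.05 in either direction was 11 without female replicate 4, when 7 were higher in males. It was 2 without female replicate 3, male replicate 1 or male replicate 3, and 4 without male replicate 2 or male replicate 4. The share of all tested genes under 0.05 in these refits is not given. These counts, and the members named below from such refits, therefore only show that the number moved with single libraries.

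**Figure D5:**
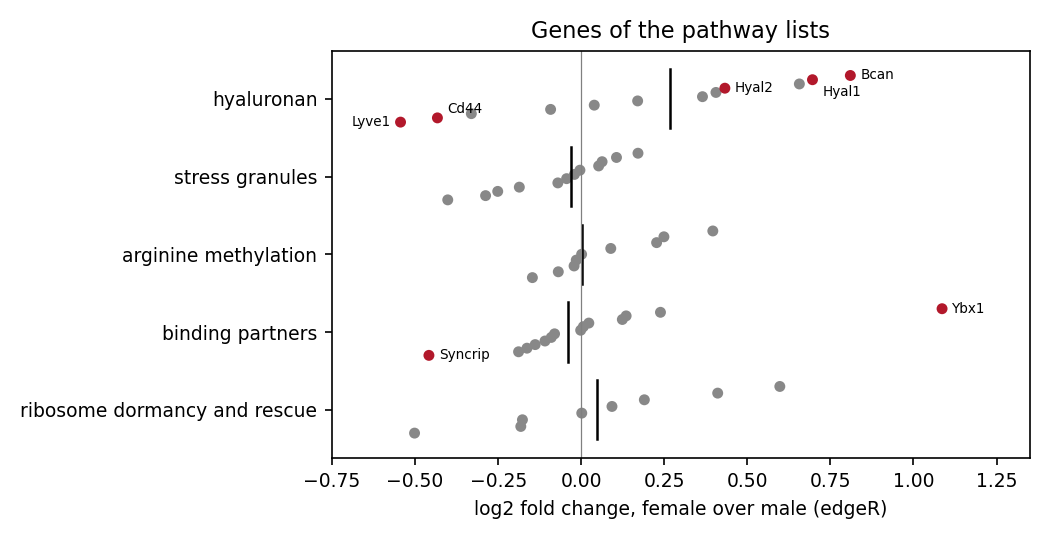
Log2 fold change, female over male, of the 55 tested genes of 5 lists (points; red and named where the unadjusted edgeR p-value is under 0.05; black bars mark the median of each list). Of the 7 red points, 5 are hyaluronan genes, and Ybx1 lies farthest from 0 at 1.09.

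In the list of ribosome dormancy and rescue (8 genes tested), 0 genes had an unadjusted edgeR p-value under 0.05, and the median log2 fold change was 0.05. Without female replicate 4, Ifrd2, Eif5a and Abce1 were under 0.05. Abce1 was also under 0.05 without female replicate 1 or 2, with no filter on low counts, and with the replicate number in the model. Eef2, the elongation factor that binds idle ribosomes together with Serbp1, was steady at 646 to 653 CPM in the 4 females and 562 to 636 CPM in males. The sexes differed by 0.093 ± 0.091 (SE) on the log2 scale (edgeR adjusted p-value 0.825). Eif5a, a translation factor that relieves stalled ribosomes, averaged 473 ± 77.9 CPM in the 4 females and 529 ± 16.5 CPM in the 4 males (SD), and Ccdc124, another factor of idle ribosomes, 188 ± 35.0 and 162 ± 8.42 CPM. Both were highest in female replicate 4 among females.

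Among 14 partner proteins described for Habp4 or Serbp1, 1 gene was higher in females and 1 higher in males at an unadjusted edgeR p-value under 0.05. These were Ybx1 and Syncrip, and neither was under 0.05 with the replicate number in the model. The same held without female replicate 2 or 3, or male replicate 1, 2 or 3. Without female replicate 4, Gnb2l1 and Pgrmc1 were the members under 0.05 instead. Ybx1, a cold-shock protein that packages mRNA, was at 5.77 CPM in female replicate 1, 24.4 to 30.4 CPM in the other females and 6.98 to 14.3 CPM in males. It was the only list member with an r of at least 0.9 with Habp4 (0.917), among 45 with a mean of at least 10 CPM. The sexes differed by 1.09 ± 0.43 (SE) on the log2 scale (edgeR adjusted p-value 0.657). Without female replicate 1 it was the single list member that passed after adjustment, where 0.668% of all tested genes passed. In that fit 8 members were under an unadjusted 0.05, where 9.58% of all genes were. Ybx1 has one of the 10 largest gaps in female replicate 1, so leaving out this library removes its low female. The pass is therefore a description and no test. Another exact copy exists for 23.3% of the 50-base exon stretches of Ybx1, so its level is uncertain.

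Syncrip, an RNA-binding protein, ran the other way, with 26.1 CPM in female replicate 1, 13.1 to 20.3 CPM in the other females and 23.5 to 29.7 CPM in males. The difference was -0.46 ± 0.20 (SE) on the log2 scale (edgeR adjusted p-value 0.696), and 17.0% of its 50-base exon stretches have another exact copy. The most abundant partners differed little: Pgrmc1, a haem-binding membrane protein, had a log2 fold change of -0.16, Ncl, the nucleolar protein nucleolin, of -0.0016, and Gnb2l1, the ribosomal scaffold RACK1, of -0.11.

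In the list of arginine methylation (9 genes tested) and in that of stress granules (12 genes tested), 0 genes had an unadjusted edgeR p-value under 0.05. Without female replicate 4, Prmt5 of the first list and Caprin1 and Ddx3x of the second were under 0.05, and without female replicate 1, Prmt6 was. The methyltransferase genes Prmt2, Prmt7 and Prmt5 were the most abundant of the first, with log2 fold changes of 0.09, -0.07 and -0.15. G3bp2 and Caprin1, core proteins of stress granules, had log2 fold changes of -0.29 and -0.40. Female replicate 4 was the lowest for both, with 308 CPM of G3bp2 and 146 CPM of Caprin1 against at least 509 and 376 CPM in the other females. Atxn2l, related to ataxin 2, had a log2 fold change of 0.05.

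In the hyaluronan list, 12 of 21 genes were tested, 3 were higher in females and 2 higher in males at an unadjusted edgeR p-value under 0.05, and the median log2 fold change was 0.27. Without female replicate 4, Hyal2, Lyve1 and Bcan were the 3 hyaluronan genes among the 11 list members under 0.05. The synthases Has1, Has2 and Has3 had at most 10 reads in any library and were not tested, nor were Hmmr, Stab1, Stab2, Acan, Hapln2 and Habp2, with at most 24 reads. Bcan, which encodes the matrix proteoglycan brevican, was at 240.0 to 303 CPM in females and 64.5 to 209 CPM in males, with no overlap. The difference was 0.81 ± 0.28 (SE) on the log2 scale (edgeR adjusted p-value 0.637). Female replicate 1, at 247 CPM, was with the other females for this gene.

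Hyal2, a hyaluronidase at the cell surface, was at 17.2 to 19.8 CPM in females and 11.2 to 14.9 CPM in males, again with no overlap, and its log2 fold change was 0.43 (edgeR adjusted p-value 0.637). Hyal1, the lysosomal hyaluronidase, had a log2 fold change of 0.70 from 10 or more reads per library, but it shares 1947 exon bases with Nat6. Cd44, the main hyaluronan receptor, averaged 439 ± 98.4 CPM in the 4 females and 584 ± 104 CPM in the 4 males (SD), a difference of -0.43 on the log2 scale (edgeR adjusted p-value 0.679). Lyve1, a hyaluronan receptor of lymphatic endothelium and some macrophages, had a log2 fold change of -0.54 from 20 or more reads per library, and Hapln4, a link protein, of 0.41 with the sexes overlapping. The r with Habp4 was 0.577 for Bcan, 0.729 for Hyal2, -0.686 for Cd44 and 0.369 for Hapln4, and was not computed for Hyal1 and Lyve1, whose mean lay under 10 CPM.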

How the data were processed

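RNA of sorted WGA-488-labelled DRG cells was sequenced as 50-base single reads from 4 female and 4 male libraries, and groups and numbers came from the sample titles. The authors aligned reads to build mm9 with TopHat2 and assigned them to genes with HTSeq-count. The deposited values are these counts, not normalised. Versions, annotation release and strand option are not given in the sources used here. The 5 summary lines of each file were left out. Ambiguous reads were 0.145% to 0.169% of uniquely aligned reads. At 4.80 to 7.33 M gene reads, 3 reads correspond to 0.409 to 0.625 CPM.

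Counts were compared between sexes with the edgeR 4.0.16 quasi-likelihood test (R 4.3.3, TMM factors, default filter, sex alone, Benjamini-Hochberg adjustment over 12518 genes), which was tested on simulated data. Positions, exon lengths and GC content came from GENCODE M1 on NCBIM37, promoters from RefSeq. Alternatives were DESeq2 1.42.0, other scalings, no filter, a replicate block and leaving out each library.

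Named genes were the pair, in each list the members with an unadjusted p-value under 0.05 and the 3 most abundant, the 10 most and 5 least like Habp4, the 10 lowest and 5 highest in female replicate 1, and the 3 nearest genes on each side. Of these, 2 genes are not reported here. Members, lists and rules were chosen with earlier results of these data known. Exact copies and overlaps were checked after the genes had been named. Python 3.11.15, pandas 2.3.3, Biopython 1.88 and matplotlib 3.10.9 were used.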

Additional observations from a re-analysis of the deposited data

Results flagged for a closer look

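In each sex, the lowest and highest of the 4 libraries were set against the others for the named genes, gene reads and marker sums, 108 sets in all. A library stood apart in 16 of them, where chance alone flags about 1 in 20 sets (5.4). The numbers cannot be set against each other, because many of these genes were named for their likeness to Habp4 or for their level in female replicate 1. Values below are the gap to the next library over the range. Female replicate 1 was lowest for Ybx1 (0.863), 2510003E04Rik (0.850), Ypel3 (0.838) and Ptges2 (0.852), and highest for Capza1 (0.871). Female replicate 4 was lowest for Gng12 (0.884), G3bp2 (0.863) and Caprin1 (0.911), and highest for Eif5a (0.868), Gnb2l1 (0.844), Prmt2 (0.832) and the summed markers of satellite glia and Schwann cells (0.950). Among males, replicate 2 was lowest for Yrdc (0.903), replicate 4 highest for Ccnc (0.872) and for the markers of endothelium and blood (0.850), and replicate 1 highest for Ankrd33b (0.880). The genes named for being lowest or highest in female replicate 1 stood apart by their choice.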

How the results depend on the processing

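The log2 fold change of Habp4 stayed between 1.64 and 1.92 over the other tests, scalings, filter and replicate block, and between 1.66 and 2.25 when each library was left out. That of Serbp1 lay between 0.05 and 0.08 (adjusted p-values 0.884 to 0.950), and between -0.029 and 0.12 when each library was left out (0.775 to 0.984), with -0.029 without female replicate 4. Same-numbered libraries deviated together with r of only -0.107 to 0.141, so they share a number and were not taken as pairs. With the replicate block the log2 fold change was 1.64 for Habp4 and 0.05 for Serbp1, and 4 list members had an unadjusted p-value under 0.05 in place of 7. Leaving out each library gave 2 to 11 such members. For the replicate block, and for every left-out library but female replicate 1, the share of all tested genes is not given. These counts are therefore no result about the members. The number of genes like Habp4 was 103 to 108 under other measures, and 120 to 165 when each library was left out. The genes themselves changed more, since only 78 of the 108 stayed at 0.9 or more with the mean of each sex subtracted. The number of genes low in female replicate 1 was 49 to 73. That number was not computed with a female library left out. At this depth 3 reads corresponded to 0.409 to 0.625 CPM, so levels near that were not measurable. The cause of the low Habp4 level in female replicate 1 was not tested.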
